A study of Homo sapiens with 75 samples.

Results

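The CIP/KIP family of cyclin-dependent kinase inhibitors has 3 members in human cells: CDKN1A, which encodes p21, CDKN1B, which encodes p27, and CDKN1C, which encodes p57. They were taken as every probe set that names only that gene, 7 of the 41097 probe sets with a single gene symbol, and stand for 3 of 19775 genes. CDKN1A was read by 202284_s_at, CDKN1B by 209112_at, and CDKN1C by 5 probe sets. The one with the highest mean, 213348_at, gave the CDKN1C values below unless another is named.

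Messenger RNA was measured on 75 Affymetrix arrays, 3 for each of 25 groups, in cells labelled as 5 human lines: G361, a melanoma line, HepG2, a hepatoma line, TK6, a B lymphoblastoid line, U2OS, an osteosarcoma line, and BJ, skin fibroblasts. In each line a dose of 5 Gy was given and RNA taken 3 h or 6 h later, while untreated cells, mock-irradiated per the labels, were taken at 0 h, 3 h and 6 h. The comparisons asked how each transcript stood in irradiated cells against untreated cells collected at the same hour. Whether the 3 arrays of a group came from separate cultures is not stated, so a p-value here covers the spread among those arrays, possibly a technical one. Each line stands for its cell type as 1 culture, and a bulk measurement cannot tell fewer cells of a kind from less RNA per cell.

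CIP/KIP proteins bind complexes of a cyclin with its kinase and hold back the passage from G1 into S phase. CDKN1A is a direct transcriptional target of p53, the transcription factor that DNA damage stabilises, and is a classical readout of its activity. CDKN1B is known for control of its protein, which the SKP2 ubiquitin ligase marks for destruction once the cell commits to S phase. CDKN1C is an imprinted gene, active mainly from the maternal copy, and restrains growth in the embryo.

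The proximal promoters of CDKN1A and CDKN1B are shown as background. Each sequence is the 250 bases before the RefSeq start on GRCh38.p14, plus strand, at chr6:36678464-36678713 for CDKN1A and chr12:12717118-12717367 for CDKN1B. Capitals mark GC boxes (GGGCGG) and CCAAT boxes (CCAAT), searched on both strands.
CDKN1A: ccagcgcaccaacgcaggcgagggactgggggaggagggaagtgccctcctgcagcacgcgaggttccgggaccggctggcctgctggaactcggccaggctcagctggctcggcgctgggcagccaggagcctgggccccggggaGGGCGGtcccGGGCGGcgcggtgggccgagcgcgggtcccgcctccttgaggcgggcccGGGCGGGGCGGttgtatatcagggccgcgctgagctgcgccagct
CDKN1B: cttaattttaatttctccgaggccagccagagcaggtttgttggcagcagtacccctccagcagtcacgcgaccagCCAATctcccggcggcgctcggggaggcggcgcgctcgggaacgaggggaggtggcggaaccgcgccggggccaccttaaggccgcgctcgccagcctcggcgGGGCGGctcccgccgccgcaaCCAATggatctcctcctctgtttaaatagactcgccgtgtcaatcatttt
The CDKN1A window held 4 GC boxes, the last pair overlapping by a base, and the CDKN1B window held 1. Of 35116 RefSeq promoter windows of this length, 42.6% held a GC box. CCAAT occurred at 2 places in CDKN1B and 0 in CDKN1A, against 32.0% of all windows with at least 1. Neither window held the letters TATAA, found in 18.9% of windows, or a p53 half-site, found in 5.57%. Sequence outside these 250 bases was not searched, so p53 sites farther away would be missed. Any link between the boxes and the irradiation effects was not tested. G and C made up 76.4% of the CDKN1A window and 64.4% of the CDKN1B window.

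The median of an array was 3.91 to 4.07 log2, and its upper quartile 5.88 to 6.41. Both the 4.07 and the 5.88 came from replicate 1 of untreated U2OS cells at 3 h. The replicate 1 arrays of G361 stood apart in the GAPDH control, whose 5' minus 3' difference was -0.94 to -0.68 there and no lower than -0.18 elsewhere. Melanocyte markers were highest in G361 for 6 of 6 measured genes, B-cell markers in TK6 for 6 of 6, and fibroblast markers in BJ for 8 of 8. Only 1 of 8 measured hepatocyte markers was highest in the arrays labelled HepG2: AFP, at 5.89 log2, against 5.48 in U2OS. Albumin averaged 2.77 in HepG2. The mean marker level per array was 3.70 to 3.91 in HepG2 and 4.23 to 4.73 in U2OS, where SERPINA1 averaged 8.57, against 3.26 in HepG2. The markers other than AFP and SERPINA1 averaged 2.77 to 4.79 over all lines, so their order between lines says little. Of 5 osteoblast markers, 2 were highest in U2OS, SPP1 (8.83) and ALPL (3.36), and 2 in HepG2, RUNX2 (9.17) and IBSP (4.20). ALPL and IBSP were nearly level over the lines, at 3.21 to 3.36 and 4.14 to 4.20. HepG2 and U2OS are therefore used below only as labels.

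Some untreated arrays went against their labels in the p53 pathway. The mean of 27 p53 target genes other than CDKN1A, relative to 0 h, was 0.89 to 1.01 log2 in irradiated HepG2 cells at 6 h, and 0.75 to 0.80 in untreated ones. In G361 it was 0.63 in replicate 3 of untreated cells at 3 h and 0.69 and 0.72 in replicates 1 and 2 at 6 h, against 0.13 to 0.14 and 0.04 in the other untreated arrays of those times. Irradiated G361 cells had -0.02 to 0.15 at 3 h and 0.39 to 0.66 at 6 h, and irradiated HepG2 cells 0.00 to 0.16 at 3 h. It was 1.23 to 1.47 in irradiated TK6 cells, 0.57 to 1.26 in irradiated U2OS cells and 0.48 to 0.56 in irradiated BJ cells. The irradiation effects in G361 are given with and without those 3 arrays, which were picked out after their values were seen. CDKN1A shared the pattern of these targets, so the values without the 3 arrays are a description and no independent check. No such value exists for HepG2, where all 3 untreated arrays at 6 h were alike.

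**Figure D1:**
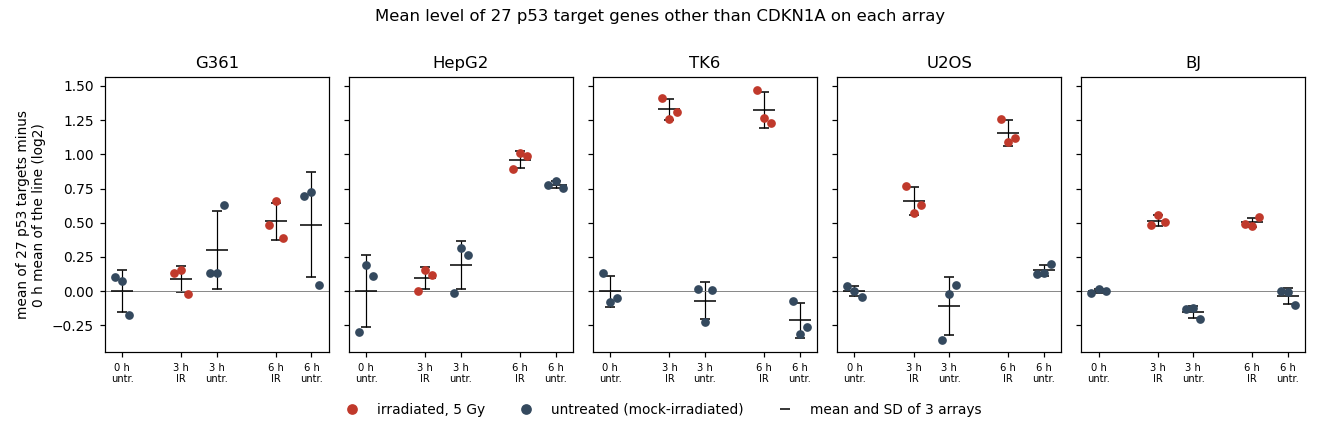
Each point is 1 array, and the y axis is the average over 27 p53 targets, CDKN1A left out, in log2 minus the mean of the line's untreated 0 h arrays, for irradiated (red) and untreated (dark) cells with the mean and SD of 3 arrays. All untreated HepG2 arrays at 6 h lie between 0.75 and 0.80, and 3 untreated arrays of G361 lie between 0.63 and 0.72.

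CDKN1A rose after irradiation in TK6, U2OS and BJ at both times, and in each of these 6 comparisons all 3 irradiated arrays lay above all 3 untreated ones. The change was largest in TK6, 4.76-fold at 3 h and 3.51-fold at 6 h, and between 2.05-fold and 2.65-fold in U2OS and BJ. The other 4 comparisons, in G361 and HepG2, had overlapping groups and were not called. Called means an adjusted p under 0.05 in limma's moderated test over the genes of that line, after Benjamini-Hochberg adjustment. Groups that did not overlap are described only, since the share of all genes with such groups was not counted.

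In TK6, CDKN1A read 11.39, 11.38 and 11.19 log2 in irradiated cells at 3 h, against 9.23, 8.94 and 9.05 in untreated cells. At 6 h it read 11.25, 11.06 and 11.03 in irradiated cells, against 9.45, 9.20 and 9.25 in untreated cells. The groups were far apart at both times, and the untreated arrays stayed near the 9.49, 9.03 and 9.27 of 0 h. The rise was 2.25 ± 0.12 log2 (SE, n = 3 each) at 3 h, with an adjusted p from limma of 1.29e-09, and ranked 8 among the genes by size. It was 1.81 ± 0.12 at 6 h (adjusted p = 1.99e-08, limma), rank 32. In TK6, 3.99% of 14227 genes were called at 3 h and 6.23% at 6 h, which is 568 and 887 genes, against 1203 and 1868 with a block on replicate number. The effect at 6 h was lower than that at 3 h by 0.44 log2 (95% interval of the difference -0.78 to -0.10), which was not called (adjusted p = 0.488, limma) where 0.295% of genes were.

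In U2OS, CDKN1A read 11.14, 10.83 and 10.74 log2 in irradiated cells at 3 h, against 9.22, 9.78 and 9.72 in untreated cells. The 6 h arrays read 11.25, 11.11 and 11.18 in irradiated cells, against 9.68, 9.85 and 9.79 in untreated cells. Replicate 1 of untreated cells at 3 h was the lowest array of the line, below the 9.50 to 9.63 of 0 h. That array stood apart as a whole, with the highest median (4.07) and lowest upper quartile (5.88) of the 75 arrays. Every U2OS comparison at 3 h uses it as a control. The rise was 1.33 ± 0.15 log2 at 3 h (adjusted p = 0.000198, limma) and 1.41 ± 0.15 at 6 h (adjusted p = 6.34e-05, limma). At 3 h, only 0.0887% of 14654 genes were called and the median of all genes was itself 0.10 higher in irradiated cells. At 6 h, 0.641% were called. Without replicate 3 of every group the 3 h effect was not called (adjusted p up to 0.0644, limma), nor in a fit of the 6 compared arrays alone (adjusted p = 0.0701).

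In BJ, CDKN1A started from the highest level of the 5 lines. It read 11.66, 11.60 and 11.71 log2 in irradiated cells at 3 h, against 10.62, 10.23 and 10.28 in untreated cells. By 6 h it read 11.53, 11.52 and 11.47 in irradiated cells, against 10.55, 10.49 and 10.36 in untreated cells. The irradiated arrays lay close together, well clear of the untreated ones. The rise was 1.28 ± 0.10 log2 at 3 h (adjusted p = 3.47e-06, limma; 0.18% of 14467 genes called) and 1.04 ± 0.10 at 6 h (adjusted p = 0.000223, limma; 0.235% called). Among the genes of BJ, CDKN1A ranked 7 at 3 h and 4 at 6 h by size of rise. Leaving out replicate 3 of every group ended the call at 6 h (adjusted p = 0.15, limma).

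**Figure D2:**
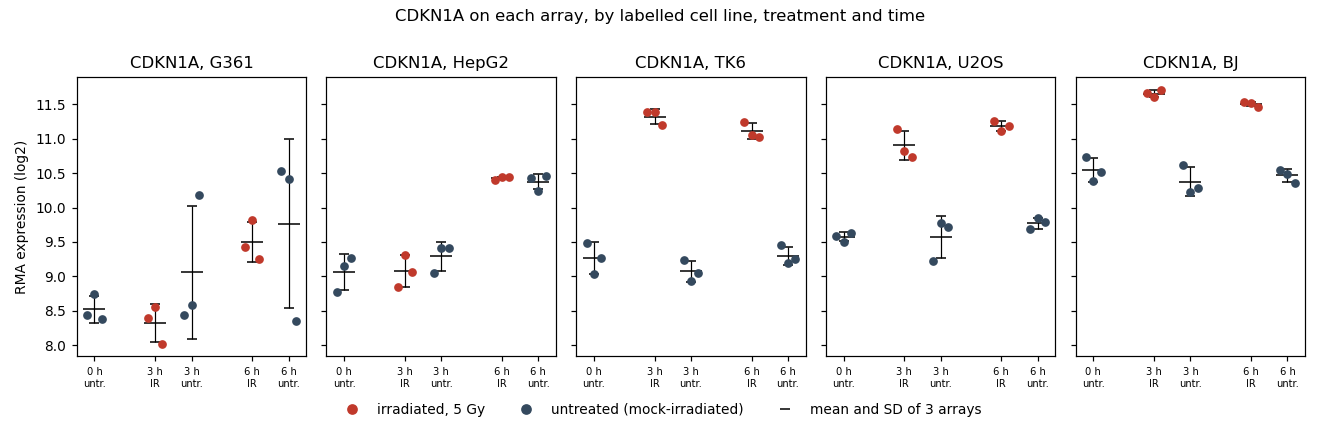
Each point is the RMA log2 expression of CDKN1A on 1 array, by labelled line, for irradiated (red) and untreated (dark) cells at 0 h, 3 h and 6 h, with the mean and SD of 3 arrays. Irradiated TK6, U2OS and BJ arrays lie above all untreated arrays of the same time, whereas in HepG2 both groups are high at 6 h and in G361 the untreated arrays split.

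In the arrays labelled HepG2, CDKN1A was high at 6 h with and without irradiation. It read 8.85, 9.31 and 9.06 log2 in irradiated cells at 3 h, against 9.05, 9.42 and 9.41 in untreated cells. The arrays of 6 h gave 10.41, 10.44 and 10.44 in irradiated cells, against 10.43, 10.25 and 10.46 in untreated cells. The groups overlapped at both times. The effect was -0.22 (95% interval -0.49 to 0.05) at 3 h and 0.05 (-0.22 to 0.32) at 6 h. Limma called 0% of 14369 genes at 3 h, where 809 had an unadjusted p under 0.05, and 0.00696% at 6 h.

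Against the 8.77, 9.15 and 9.27 log2 of untreated HepG2 cells at 0 h, CDKN1A was higher by 1.37 ± 0.13 in irradiated cells at 6 h (adjusted p = 3.82e-06, limma; 1.54% of genes called). It was higher by 1.32 ± 0.13 in untreated cells at 6 h (adjusted p = 8.61e-06; 0.64% called). Both groups lay wholly above 0 h, and the 2 comparisons share the 0 h arrays. Of the 27 other p53 targets tested, 12 rose and 0 fell in untreated cells at 6 h relative to 0 h, among them GDF15, a secreted stress cytokine (1.99), and TP53INP1 (2.03). In the other lines, CDKN1A of untreated cells at 6 h differed from 0 h by 1.24 in G361, 0.04 in TK6, 0.20 in U2OS and -0.08 in BJ, and none of these was called in limma. The G361 difference ran from 0.82 to 1.88 with a replicate number left out, and was called without replicate 3 (adjusted p = 0.0111, limma) and in the fit of 75 arrays (adjusted p = 0.0431). The shares of genes called there were 0% in G361 (282 at an unadjusted p under 0.05), 5.16% in TK6, 0% in U2OS (118) and 0.00691% in BJ.

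In G361, CDKN1A read 8.39, 8.56 and 8.02 log2 in irradiated cells at 3 h, against 8.43, 8.58 and 10.18 in untreated cells. For the 6 h groups it read 9.43, 9.82 and 9.26 in irradiated cells, against 10.53, 10.41 and 8.35 in untreated cells. The high untreated arrays were the 3 that were also high in the p53 targets, and the remaining untreated arrays were near the 8.44, 8.75 and 8.38 of 0 h. With all arrays the effect was -0.74 (95% interval -1.73 to 0.26) at 3 h and -0.26 (-1.25 to 0.73) at 6 h. Limma called 0 genes at either time, a share of 0%, with 106 and 226 genes at an unadjusted p under 0.05. The 3 h effect rested on 1 high untreated array: without the 3 arrays it was -0.18, and with single arrays or replicate numbers left out it ran from -1.10 to -0.03. Without the 3 arrays the 6 h effect was 1.15, from which no call is drawn. That fit left 1 untreated array at 6 h, assumed to vary like the other groups. Irradiated cells at 6 h all lay above 0 h, by 0.98 (95% interval -0.01 to 1.97), again with 0% of genes called in limma and 569 at an unadjusted p under 0.05.

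The irradiation effect on CDKN1A differed between the 5 lines. In a fit of all 75 arrays the moderated F over the lines was 21.1 at 3 h (adjusted p = 4.23e-08, limma) and 11.0 at 6 h (adjusted p = 0.000176), where 1.34% and 1.83% of 16027 genes were called. Of 10 pairs of lines, 4 were called at 3 h and 3 at 6 h, each with G361 or HepG2 on one side. At 3 h the difference was -2.99 for G361 minus TK6 (1.38% of genes called), -2.07 for G361 minus U2OS (0.144%), -2.02 for G361 minus BJ (0.0749%) and -2.47 for HepG2 minus TK6 (1.31%). At 6 h it was -2.07 for G361 minus TK6 (1.34%), -1.67 for G361 minus U2OS (0.287%) and -1.76 for HepG2 minus TK6 (1.25%). HepG2 minus U2OS at 3 h, -1.55, was called too once replicate number entered as a block (adjusted p = 0.0386, against 0.101 without it). Without the 3 untreated G361 arrays, the fit of the other 72 gave -2.43 for G361 minus TK6, -1.51 for G361 minus U2OS and -1.46 for G361 minus BJ at 3 h. For the 6 h effect the values were -0.66 for G361 minus TK6 and -0.26 for G361 minus U2OS, with 1 untreated G361 array left. The arrays were left out for their p53 target level, whose pattern CDKN1A shared, so no call is drawn from that fit. Calls also depended on single replicate numbers. Without replicate 1 or 2 the F of 6 h and its 3 pairs were not called (adjusted p of F up to 0.171), G361 minus U2OS at 3 h was lost without replicate 1, and G361 minus BJ at 3 h without replicate 2 or 3. Leaving out replicate 3 of every group added HepG2 minus U2OS (adjusted p = 0.00541, limma) and HepG2 minus BJ (0.0428) at 3 h, and G361 minus BJ (0.00105) and HepG2 minus U2OS (0.0288) at 6 h. The HepG2 pairs at 6 h take in the high untreated arrays of that line, whose part was not tested.

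TK6, U2OS and BJ were therefore also fitted on their own 45 arrays, a choice made after the data were seen. The 3 h rise in TK6 exceeded that in U2OS by 0.92 ± 0.18 log2 (adjusted p = 0.00399, limma; 0.49% of 15730 genes called) and that in BJ by 0.97 ± 0.18 (adjusted p = 0.00189; 0.553% called). At 6 h it exceeded that in BJ by 0.77 ± 0.18 (adjusted p = 0.0123; 1.13% called), whereas the 0.40 over U2OS was not called (0.769% called). U2OS and BJ differed by 0.05 at 3 h (95% interval -0.31 to 0.41; 0.00636% of genes called) and 0.37 at 6 h (0.01 to 0.73; 0.14% called), neither called. In the fit of all lines, by contrast, no pair of these 3 lines was called. The adjusted p from limma there was 0.345 for TK6 minus U2OS and 0.499 for TK6 minus BJ at 3 h. For TK6 minus BJ at 6 h it was 0.620. All 5 alternatives to that fit left these pairs uncalled. The larger rise in TK6 was thus called only in the fit of 45 arrays. Over these 3 lines the group means spanned 0.75 log2 in irradiated cells at 3 h and 0.39 at 6 h, against 1.31 and 1.17 in untreated cells. The 3 lines thus lay closer together after irradiation than without it, and no test was made of this spread.

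CDKN1B was called higher in 0 of 10 comparisons and fell in 1, irradiated TK6 cells at 3 h. It read 8.99, 9.16 and 9.10 log2 there, against 9.55, 9.73 and 9.59 in untreated cells, so the groups did not overlap. The fall was -0.54 ± 0.11 log2, a factor of 1.45 (adjusted p = 0.00424, limma), in a comparison where 2.11% of genes were called lower. Its call was lost in a fit of all 75 arrays (adjusted p = 0.0742) and without replicate 2 or 3 (adjusted p up to 0.0954). Against the 9.34, 9.55 and 9.35 of untreated cells at 0 h the difference was -0.33 (adjusted p = 0.0563, limma; 10.5% of genes called), which a block on replicate number brought past the threshold (adjusted p = 0.0164). At 6 h it read 9.36, 9.27 and 8.98 in irradiated TK6 cells, against 9.43, 9.23 and 9.31 in untreated cells, and the groups overlapped (-0.12, 95% interval -0.34 to 0.11).

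In U2OS, CDKN1B read 9.03, 8.10 and 8.35 log2 in irradiated cells at 3 h, against 9.23, 8.71 and 9.01 in untreated cells. The 6 h arrays read 8.87, 8.52 and 8.60 in irradiated cells, against 9.25, 9.06 and 9.47 in untreated cells. The groups overlapped at 3 h and were apart at 6 h, where all irradiated arrays were lower. The effect was -0.49 (95% interval -0.95 to -0.02) and -0.60 (-1.06 to -0.13), and neither was called (adjusted p = 0.909 and 0.714, limma). Without replicate 1 the 6 h effect was called (adjusted p as low as 0.0329).

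In BJ, CDKN1B was 8.99, 9.06 and 8.92 log2 in irradiated cells at 3 h, against 9.22, 9.30 and 9.08 in untreated cells. By 6 h it read 9.24, 9.20 and 8.95 in irradiated cells, against 9.50, 9.50 and 9.01 in untreated cells. All irradiated arrays were lower at 3 h, and the groups overlapped at 6 h. The effect was -0.21 at each time, the 95% interval reached 0.05 at both, and neither effect was called.

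In the arrays labelled HepG2, CDKN1B stood in the opposite direction at 6 h. It read 7.41, 7.61 and 7.74 log2 in irradiated cells, against 6.85, 6.99 and 6.74 in untreated cells, with all irradiated arrays higher. The difference was 0.73 ± 0.13 log2 and narrowly missed the threshold (adjusted p = 0.0626, limma). With replicate number as a block over the 15 arrays of the line, the adjusted p from limma was 0.00591. Same-numbered replicates had a lowest correlation of 0.146 at 6 h and 0.0961 at 3 h, the latter under the limit of 0.1 used here. At 3 h the values were 7.72, 7.66 and 7.68 in irradiated cells, against 7.68, 7.94 and 7.77 in untreated cells, and overlapped (-0.11, 95% interval -0.38 to 0.15). The 6 h effect exceeded the 3 h effect by 0.84 ± 0.18, not called (adjusted p = 0.624; 0% of genes called in limma, 329 at an unadjusted p under 0.05). The untreated 6 h arrays were the lowest of the line. They all lay below the 7.22, 7.64 and 7.31 of 0 h, by 0.53 on average (95% interval -0.80 to -0.26, adjusted p = 0.0703, limma, and 0.0141 with the block), whereas irradiated cells at 6 h overlapped 0 h. Those same untreated arrays carried the high p53 target level, whose part in the difference was not tested.

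In G361, CDKN1B read 8.96, 9.01 and 9.20 log2 in irradiated cells at 3 h, against 9.13, 8.97 and 9.34 in untreated cells. The arrays of 6 h gave 9.08, 9.11 and 9.44 in irradiated cells, against 8.84, 8.32 and 9.45 in untreated cells. The groups overlapped at both times, and the low untreated arrays at 6 h were replicates 1 and 2, the pair with the high p53 target level. The effect was -0.09 at 3 h and 0.34 (95% interval -0.09 to 0.77) at 6 h with all arrays. Without the 3 arrays it was 0.01 and -0.24, and was called in neither case.

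The lines differed in the 6 h effect on CDKN1B (F = 8.67, adjusted p = 0.00166, limma) and not detectably at 3 h (F = 1.47). Of the 10 pairs at 6 h, 1 was called: HepG2 minus U2OS, 1.32 ± 0.25 log2 (adjusted p = 0.00124; 0.324% of genes called). It was lost without replicate 3, and the F without replicate 2 or 3 (adjusted p up to 0.192). Without the 3 untreated G361 arrays F was 9.87, and G361 minus U2OS, 0.94 with all arrays, was 0.36. A block on replicate number also called G361 minus U2OS (adjusted p = 0.00221, against 0.0984 without it), HepG2 minus TK6, 0.85 (0.00267 against 0.0773) and HepG2 minus BJ, 0.94 (0.00503 against 0.111). Among TK6, U2OS and BJ alone no difference was called, with an F of 2.30 at 6 h (adjusted p = 0.982; 1.26% of genes called).

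**Figure D3:**
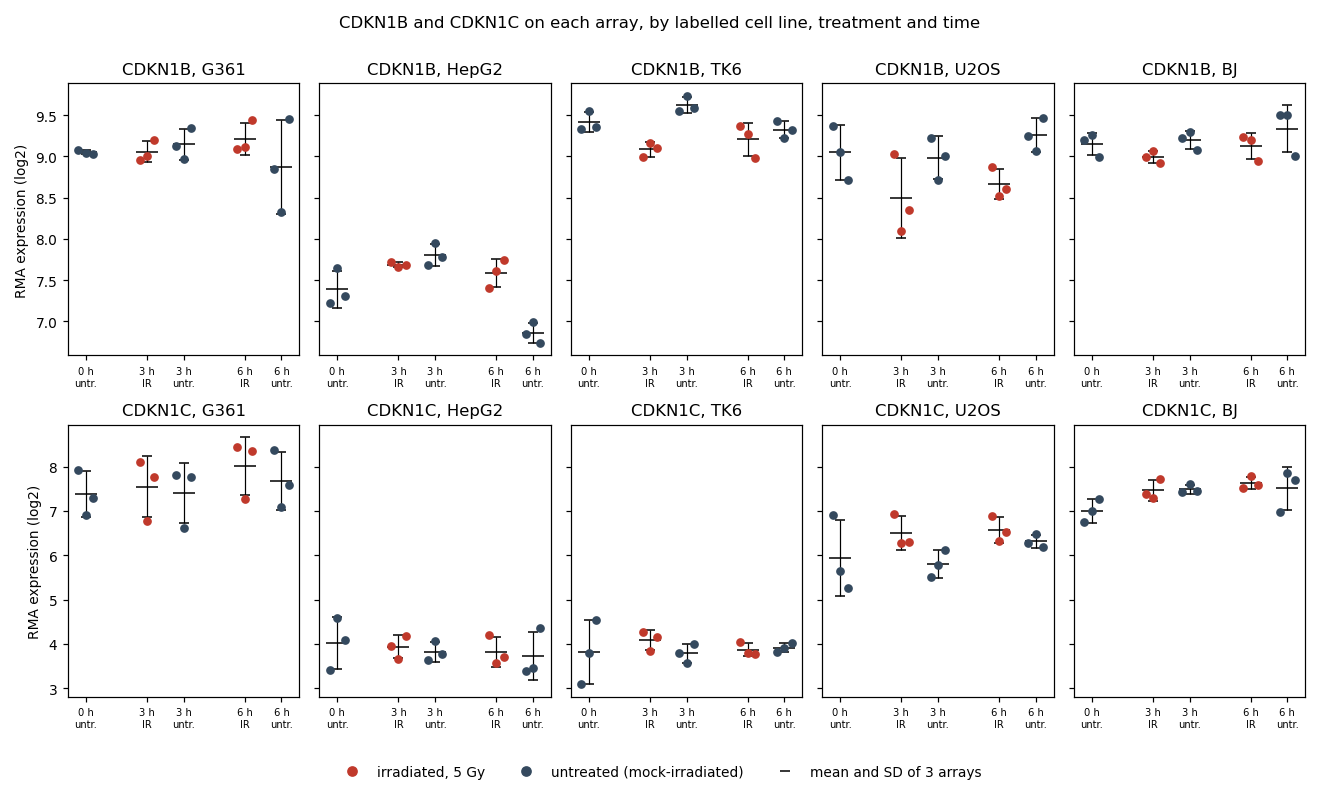
Each point is the RMA log2 expression of CDKN1B (top) or CDKN1C (bottom) on 1 array, by labelled line, for irradiated (red) and untreated (dark) cells, with the mean and SD of 3 arrays. CDKN1B is separated in TK6 and BJ at 3 h and U2OS at 6 h with irradiated cells lower, and in HepG2 at 6 h with irradiated cells higher, and CDKN1C differs between lines, with U2OS at 3 h its only separated pair of groups. Of these separated groups, only CDKN1B in TK6 at 3 h was called.

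CDKN1C was set apart by line, and no irradiation effect on it was called in 10 comparisons. Of all genes, limma called at most 0.00696% in G361 and HepG2, so a missing call there says little. In the other lines it called 0.0887% to 6.23%. The effects on CDKN1C ran between -0.05 and 0.70 log2. U2OS at 3 h had the highest, where it read 6.94, 6.28 and 6.30 log2 in irradiated cells, against 5.50, 5.78 and 6.12 in untreated cells. All irradiated arrays were higher, by 0.70 (95% interval 0.02 to 1.38), with an adjusted p of 0.909 in limma. The 5.50 came from replicate 1, the array named above for its low upper quartile. The 0 h arrays of U2OS, at 6.91, 5.64 and 5.26, spanned nearly the same range.

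In G361, CDKN1C read 8.11, 6.78 and 7.76 log2 in irradiated cells at 3 h, against 7.81, 6.61 and 7.77 in untreated cells. For the 6 h groups it read 8.44, 7.26 and 8.35 in irradiated cells, against 8.38, 7.09 and 7.58 in untreated cells. Replicate 2 was the lowest array in every group of the line, and the range within each group exceeded both effects. Irradiated against untreated, CDKN1C was 0.15 higher at 3 h and 0.34 higher at 6 h, with 95% intervals of -0.74 to 1.04 and -0.55 to 1.23. Without the 3 untreated arrays named above these effects were 0.34 and 0.44, again not called.

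In BJ, CDKN1C read 7.37, 7.29 and 7.73 log2 in irradiated cells at 3 h, against 7.42, 7.60 and 7.45 in untreated cells. At 6 h it read 7.52, 7.78 and 7.59 in irradiated cells, against 6.97, 7.86 and 7.69 in untreated cells. All of these but 1 untreated array at 6 h lay above the 6.74, 6.99 and 7.26 of 0 h. Relative to 0 h the difference was 0.63 (95% interval 0.22 to 1.04) in irradiated cells at 6 h and 0.51 (0.10 to 0.92) in untreated cells at 6 h. Neither was called (adjusted p = 0.11 and 0.61, limma), but the irradiated one was with a block on replicate number (adjusted p = 0.0305), in comparisons that called 2.08% and 0.00691% of genes and share the 0 h arrays.

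In HepG2 and TK6, CDKN1C was close to the level limit of 3.47 and 3.52 log2, the 40th percentile of all probe sets of the line. It ran between 3.38 and 4.59 over the 15 HepG2 arrays and between 3.09 and 4.53 over the 15 TK6 arrays. Irradiated and untreated cells overlapped at each time in both lines. Near this limit small effects were not detectable.

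Of the 4 other CDKN1C probe sets, 3 kept the split between lines. Those 3, 213182_x_at, 216894_x_at and 219534_x_at, averaged 5.14 to 5.18 in G361, 5.01 to 5.10 in BJ and 4.77 to 4.92 in U2OS, but 3.93 to 4.21 in HepG2 and 3.98 to 4.27 in TK6. The other, 219533_at, lay below the level limit in all 5 lines, at 3.21 to 3.44. Of 40 irradiation effects read by these probe sets 0 were called in limma, and they ran between -0.34 and 0.45 log2. They include those of 219533_at, and the share of all probe sets called in these fits was not counted. Levels of different probe sets are not compared as amounts, since each has its own affinity.

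**Figure D4:**
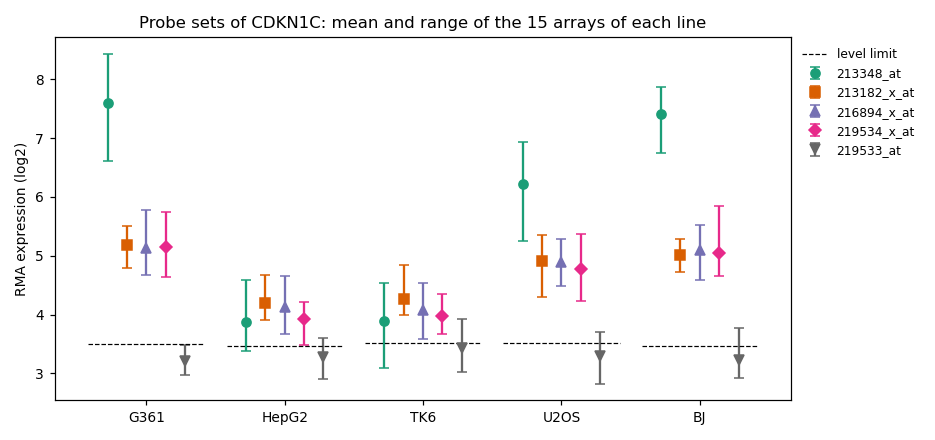
Each marker is the mean RMA log2 level of 1 CDKN1C probe set over the 15 arrays of a line, with bars to the lowest and highest array and a dashed line at the level limit. Probe set 213348_at is above 7 on average in G361 and BJ and near the limit in HepG2 and TK6, and 219533_at is below the limit in every line.

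Without irradiation the 3 genes ordered the lines differently. Joint normalization of the 5 lines is neither stated nor excluded by the labels, so a line and its processing cannot be told apart in these levels, and 80.4% of 16027 genes were called different between lines at 0 h. CDKN1A averaged 10.55 ± 0.18 log2 in BJ (SD, n = 3), 9.57 ± 0.06 in U2OS, 9.27 ± 0.23 in TK6, 9.06 ± 0.26 in HepG2 and 8.52 ± 0.20 in G361. BJ was above each other line, and of 10 pairs 6 were called in limma, with 45.3% to 59.2% of genes called per pair. Neighbours below BJ in this order were not called. TK6 minus U2OS, -0.31, had an adjusted p of 0.347 with 75 arrays and 0.034 in the fit of 45 arrays.

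CDKN1B averaged 9.41 ± 0.12 log2 in TK6, 9.15 ± 0.14 in BJ, 9.05 ± 0.02 in G361, 9.05 ± 0.33 in U2OS and 7.39 ± 0.22 in HepG2. Only the 4 pairs with HepG2 were called, from -2.02 log2 for HepG2 minus TK6 to 1.66 for G361 minus HepG2, so that HepG2 was the lower line in each. CDKN1C averaged 7.37 ± 0.52 in G361, 7.0 ± 0.26 in BJ, 5.94 ± 0.86 in U2OS, 4.03 ± 0.59 in HepG2 and 3.81 ± 0.72 in TK6. Of its 10 pairs 8 were called, of which U2OS minus BJ, -1.06, lost its call without replicate 2 or 3 (adjusted p up to 0.317, limma) and ran from -1.68 to -0.59. G361 minus BJ, 0.37 (95% interval -0.31 to 1.06), and HepG2 minus TK6, 0.22 (-0.46 to 0.90), were not.

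**Figure D5:**
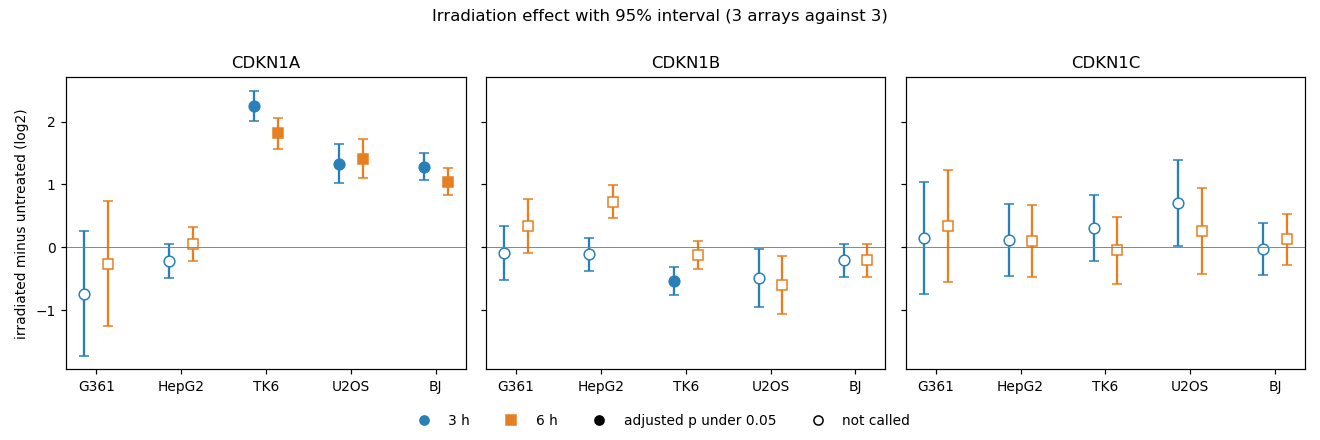
Irradiated minus untreated log2 difference of each gene by labelled line at 3 h (circles) and 6 h (squares), with the 95% interval from limma, filled where the adjusted p was under 0.05. CDKN1A is filled in TK6, U2OS and BJ at values between 1.04 and 2.25, CDKN1B only in TK6 at 3 h (-0.54), and CDKN1C nowhere.

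Over 20 differences, the 4 later groups of each line minus its 0 h arrays, the pattern of CDKN1A was most like that of 8 genes of the p53 target list. Pearson r was 0.96 for SESN1, a stress-induced inhibitor of mTORC1, 0.95 for TIGAR, MDM2, TRIAP1 and PPM1D, 0.94 for TP53INP1 and GADD45A, and 0.91 for GDF15. MDM2 is the ligase that degrades p53, and PPM1D is a phosphatase that turns the damage signal off. CDKN1B was most like HYLS1 (0.84), CSTF1 (0.79), WEE1, an inhibitory kinase of CDK1 (0.78), and BRD8 (0.77). CDKN1C was most like SLC9A3-AS1 (0.87), S1PR3 (0.82), HSPB3 (0.81) and APBB1 (0.81). Between members r was -0.65 for CDKN1A with CDKN1B, 0.17 for CDKN1A with CDKN1C and -0.22 for CDKN1B with CDKN1C. These are descriptions over 20 differences that share lines and 0 h arrays.

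Other p53 targets rose where CDKN1A rose. Of those tested, 22 of 26 were higher at 3 h and 24 of 26 at 6 h in TK6, 7 and 15 of 27 in U2OS, and 13 and 10 of 27 in BJ, with 0 lower. Of all genes tested, 1.88% and 4.01% were called higher in TK6, 0.0751% and 0.307% in U2OS, and 0.18% and 0.145% in BJ. The median effect of the list was 1.36 and 1.42 log2 in TK6, against 0.01 for all genes at both times. It was 0.64 and 0.92 in U2OS, against 0.10 and 0.00 for all genes, and 0.51 and 0.56 in BJ, against 0.00 and 0.02. In TK6 at 3 h FUCA1, a lysosomal fucosidase, rose by 3.67 and TP53INP1 by 3.14, both more than CDKN1A. In U2OS the counts fell to 1 at 3 h without replicate 2 and to 2 at 6 h without replicate 3, and in BJ at 6 h to 0 without replicate 2. In HepG2 and G361 limma called 0 of 27 at either time. With a block on replicate number 6 were higher in HepG2 at 6 h, where the block called 56 of 14369 genes in either direction. Without replicate 1 of every HepG2 group 7 were lower at 3 h, and 9 were higher and 1 lower at 6 h. The share of all genes called in that last fit is not printed, so its counts are not set apart from a general rise in calls.

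Among 13 cyclins and cyclin-dependent kinases, the partners that CIP/KIP proteins bind, 0 rose. In TK6, 3 of 11 tested fell at 3 h: CCNB1 and CCNB2, mitotic cyclins, by 1.40 and 0.69 log2, and CCNA2, the S and G2 cyclin, by 0.61. At 6 h CCNB1 fell by 0.98, CCNE1 by 0.52 and CCNB2 by 0.48. Over the alternative fits 1 to 4 were lower at 6 h. Of all genes in TK6, 2.11% were called lower at 3 h and 2.23% at 6 h. In U2OS 1 of 12 fell, CCNB1 at 6 h, by 0.63, where 0.334% of genes were called lower. There 2 were lower with a block on replicate number, 4 without replicate 1, and 0 with no trend in the variance. In BJ at 6 h 2 of 12 fell: the G1/S cyclin CCNE2 fell by 2.35 and CCNB1 fell by 1.28, where 0.0899% of genes were called lower. With all probe sets of a gene averaged, 0 of 12 were called there in limma, and the fit of 75 arrays called 4. HepG2 and G361 had 0 called, except that without replicate 1 of every HepG2 group 4 of 12 were lower and 1 higher at 3 h, and 1 lower and 1 higher at 6 h. The share of all genes called in that fit is not printed. With a block on replicate number 1 was lower in HepG2 at 6 h, where the block called 56 of all genes. CDK2, the main kinase target of p21 and p27, was called nowhere and ran between -0.53 in BJ at 6 h and 0.37 in G361 at 6 h.

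The INK4 inhibitors, the other family of kinase inhibitors, showed 0 called changes among the 3 of 4 measured. Over the same comparisons limma called 0% to 6.23% of all genes. CDKN2A ran between -0.15 and 0.45. Of 12 parts of the ubiquitin ligases that turn over CIP/KIP proteins, 1 was called, CDC20, which activates the anaphase-promoting ligase. CDC20 fell by 0.79 at 3 h and fell by 1.19 at 6 h in TK6, and 1 of 12 is to be read against the 2.11% and 2.23% of all genes called lower there. With a block on replicate number 2 were lower in TK6 at 6 h and 1 each in U2OS and BJ at 6 h. Of all genes, the block called 157 in U2OS and 75 in BJ at 6 h. Without replicate 1 of every HepG2 group 2 were lower and 1 higher there at 3 h, and 1 was lower at 6 h. The share of all genes called in that fit is not printed. SKP2 and CKS1B, which recognise phosphorylated p27, were called nowhere, with SKP2 between -0.38 and 0.32. Of 15 pocket protein, E2F and DREAM genes 1 was called, E2F5, which fell in TK6 by 0.62 at 3 h and by 0.60 at 6 h. This too is to be read against the 2.11% and 2.23% of all genes called lower there. With a block on replicate number 1 was higher and 1 lower in TK6 at 3 h, and 2 were higher and 2 lower at 6 h. Of all genes, the block called 1203 and 1868 there in either direction. With all probe sets of a gene averaged, 0 were called lower at either time.

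Among 19 measured regulators of CIP/KIP transcription, MDM2 rose by 1.88 at both times in TK6, by 1.47 at 6 h in U2OS, and by 1.41 and 0.95 in BJ. MYC, which represses CDKN1A transcription, fell in TK6 by 1.29 at 3 h and 0.59 at 6 h. MYC was -0.88 and -0.60 in U2OS and -0.45 and -0.10 in BJ, not called. FOXO1 and FOXO3, activators of CDKN1B, were called nowhere. With all arrays, 1.88% and 4.01% of genes were called higher in TK6 at 3 h and 6 h, and 2.11% and 2.23% lower. The shares called higher were 0.307% in U2OS at 6 h, and 0.18% and 0.145% in BJ. Without replicate 1 of HepG2, 4 of 15 pocket protein, E2F and DREAM genes were lower there at 3 h. Of 18 regulators, 3 were lower and 1 higher at 3 h in that fit, and 2 were lower at 6 h. The share of all genes called in that fit is not printed, so these counts are not read as results about the lists.

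Genes near the members on the chromosome were tested in the same fits. Of 7 measured genes beside CDKN1A, 1 was called, SRSF3, a splicing factor, which fell by 0.31 in TK6 at 6 h, where 2.23% of all genes were called lower. Of 6 beside CDKN1B, 2 rose in TK6 at 6 h, GPR19 by 0.91 and CREBL2 by 0.62, where 4.01% of all genes were called higher. With a block on replicate number, 2 of these 6 were lower in TK6 at 3 h, where the block called 1203 of all genes in either direction. Of 8 near CDKN1C, including KCNQ1OT1, the noncoding RNA of its imprinted cluster, 0 were called in limma, and KCNQ1OT1 ran between -0.17 and 0.18. ASCL2, among these 8, lay more than 500 kb away. Those comparisons called 0% to 6.23% of all genes. Without replicate 1 of every HepG2 group, 1 gene near CDKN1C and 1 beside CDKN1A were lower there at 3 h, and 1 beside CDKN1B was higher at 6 h. The share of all genes called in that fit is not printed.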

How the data were processed

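The authors deposited log2 expression values from 75 single-sample arrays, summarised with RMA per the submitters' processing notes, its version and any joint normalization being not given in the sources used here. All arrays were used, and no pair was identical. Probe sets with 1 gene symbol were kept (41097, against 1801 with several and 11777 unnamed), and the one with the highest mean stood for a gene. To be tested in a line, a gene had to average above the line's 40th percentile over all probe sets. All 3 members passed in all 5 lines. Each line was fitted on its 15 arrays with limma 3.58.1 in R 4.3.3, moderated variance with trend, and adjusted by Benjamini-Hochberg over 14227 to 14654 genes. Differences between lines came from 1 fit of 75 arrays. Alternatives were other normalization, probe sets, filters, variance models, array subsets, a replicate block and leaving out arrays. The fitting code was tested on simulated data.

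The members, lists and tests were chosen with earlier results of these data known. Named genes are the members, called or extreme list members and the genes of most similar pattern, by Pearson r. SKP2, CKS1B, FOXO1, FOXO3, CDK2 and KCNQ1OT1 were added by their known roles after their values were seen. Promoter sequences are RefSeq's (2 of 3 members matched). Same-numbered replicates deviated together (correlations of at least 0.1) in every comparison of irradiated with untreated cells but the HepG2 comparison of 3 h (0.0961) and the BJ comparison of 6 h (-0.0306), so the pairing comes from the values. The number of arrays limits the precision.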

Additional observations from a re-analysis of the deposited data

Results flagged for a closer look

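The irradiation effect on CDKN1A differed between the 5 lines at both times in limma's moderated F test, with F = 21.1 at 3 h and F = 11.0 at 6 h, and that on CDKN1B at 6 h, with F = 8.7. Between pairs of lines, the CDKN1A effect at 3 h differed by -2.99 log2 for G361 minus TK6, -2.07 for G361 minus U2OS, -2.02 for G361 minus BJ and -2.47 for HepG2 minus TK6. At 6 h it differed by -2.07 for G361 minus TK6, -1.67 for G361 minus U2OS and -1.76 for HepG2 minus TK6. The CDKN1B effect at 6 h differed by 1.32 log2 for HepG2 minus U2OS, where every irradiated HepG2 array was higher than every untreated one, by 0.73 on average, and every irradiated U2OS array was lower, by 0.60. Neither of these 6 h effects was called within its line, and the share of all genes with such separate groups was not counted. Apart from HepG2 minus TK6 at 3 h, these differences take in untreated G361 or HepG2 arrays with a high p53 target level. Without the 3 such G361 arrays, the CDKN1A differences of G361 were between -2.43 and -1.46 at 3 h, and -0.66 and -0.26 at 6 h. Those arrays were left out for their p53 target level, whose pattern CDKN1A shared, so these values are no independent check of the differences. The part of the HepG2 arrays was not tested. All calls at 6 h were lost with some replicate number left out, as were G361 minus U2OS and G361 minus BJ at 3 h.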

How the results depend on the processing

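Of 604 alternative values of the irradiation effects and the F over the lines, 543 kept their direction and side of the threshold, 43 changed sign, 12 lost a call and 6 gained one. Many were never called, such as the irradiation effects on CDKN1C. Differences between pairs of lines were counted apart. Of 10 pairs, 6 at 3 h and 5 at 6 h kept their side of the threshold in all alternatives for CDKN1A, and 6 at 6 h for CDKN1B. Of the sign changes, 0 concerned a called value in limma. In limma, leaving out the 3 untreated G361 arrays, a choice made after the data were seen, gave 1.15 for CDKN1A at 6 h and 0.0088 and -0.24 for CDKN1B at 3 h and 6 h. Read by the other CDKN1C probe sets, the effect was -0.088, -0.0029 and -0.00068 in G361 at 3 h and -0.20 at 6 h, -0.19 and -0.069 in HepG2, -0.034 in TK6 at 3 h, and 0.25, 0.12 and 0.026 in TK6 at 6 h. In U2OS they gave -0.059 and -0.066, and in BJ 0.24 and 0.015 at 3 h and -0.13 and -0.037 at 6 h. The mean of all probe sets gave 0.00071 in TK6 at 6 h and 0.015 in BJ at 3 h. The 6 h effect on CDKN1B in HepG2 was called with a replicate block (0.73, adjusted p = 0.00591, limma) and after quantile normalization (0.75, 0.0111). It also passed with averaged probe sets (adjusted p = 0.0468, limma). CDKN1B has 1 probe set, so averaging left its own values unchanged (0.73) and altered only those of other genes. Beyond this HepG2 effect, pairing by replicate number changed no call of a member between irradiated and untreated cells of the same hour. CDKN1B in TK6 at 3 h (-0.54) had an adjusted p of 0.0742 with 75 arrays, and CDKN1A in U2OS at 3 h (1.33) had 0.0701 with 6 arrays. In TK6, U2OS and BJ alone, F for CDKN1B was 2.30 at 6 h and 2.53 for the level (adjusted p = 0.118).

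With single arrays or replicate numbers left out, the CDKN1A effect ran from -0.97 to 0.16 in G361 and from -0.021 to 0.090 in HepG2 at 6 h. In U2OS at 3 h it was 1.03 to 1.49, and in BJ at 6 h 0.99 to 1.08. Its difference between untreated TK6 cells at 6 h and 0 h was -0.031 to 0.072. For CDKN1B the effect was -0.18 to 0.0088 in G361 at 3 h, 0.59 to 0.82 in HepG2 at 6 h (called without replicate 1, adjusted p = 0.000846), -0.58 to -0.48 in TK6 at 3 h and -0.71 to -0.46 in U2OS at 6 h. The 6 h minus 3 h effect of CDKN1B in HepG2 was 0.72 to 1.0, called without replicate 1 (adjusted p = 0.00719). CDKN1C effects were -0.24 to 0.54 in G361 at 3 h, -0.040 to 0.38 and -0.27 to 0.47 in HepG2, -0.18 to 0.049 in TK6 at 6 h, and -0.18 to 0.12 and -0.15 to 0.30 in BJ. F at 6 h was 5.10 to 31.3 for CDKN1A and 5.29 to 7.80 for CDKN1B. The number of genes called also moved. It was 211 to 1203 in TK6 at 3 h, against 568 in the reported fit, and 246 to 1868 at 6 h, against 887. It was 2 to 76 in U2OS at 3 h (13 reported), 12 to 256 at 6 h (94), 12 to 32 in BJ at 3 h (26), 0 to 148 in BJ at 6 h (34), 0 to 939 in HepG2 at 3 h (0) and 0 to 372 in HepG2 at 6 h (1). With 3 arrays a group, differences near the spread between arrays could not be called.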
